A study of Mus musculus with 6 samples.

Results

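Transcripts of 10 basement membrane genes were examined in the aortic wall: the laminin α chains Lama2, Lama3, Lama4 and Lama5, the laminin β chains Lamb1 and Lamb2, the laminin γ chain Lamc1, the nidogens Nid1 and Nid2, and perlecan (Hspg2). They were chosen by name and found in the count table through their Ensembl identifiers, so that they were 10 of 52636 genes, and the rule itself used no measured value. All 10 had counts in every library and passed the filter on low counts.

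RNA of whole thoracic aorta was sequenced in 6 libraries from mice aged 12 weeks. The WT group (n = 4) was C57BL/6J without treatment. Mice of the KO group (n = 2, Tgfbr1/2iSMCKO) were Tgfbr1f/f and Tgfbr2f/f, with Myh11-CreERT2 as the Cre driver and mT/mG as the reporter. At 11 weeks they were given intraperitoneal tamoxifen, 2 mg per day over 5 days. The groups therefore differed in both floxed receptor genes, in the Cre transgene, in the mT/mG reporter and in tamoxifen, and the parts of these cannot be told apart. Cre expressed from Myh11 acts in smooth muscle cells (SMCs), while endothelial cells, fibroblasts and leukocytes of the wall keep their receptors. Nothing in the labels says whether a library came from 1 animal, and p-values measure the spread between these libraries.

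A basement membrane is a thin sheet of matrix that surrounds each SMC of the aortic media and underlies the endothelium. Laminins are its first layer: each is a trimer of an α, a β and a γ chain that binds integrins and dystroglycan on the cell. Nidogens bind the laminin γ1 chain and join the laminin network to that of type IV collagen, and perlecan, a large heparan sulfate proteoglycan, binds both and holds growth factors. Vascular SMCs and endothelium are known for laminins with α4, α5 and, in SMCs, α2, whereas α3 is known mainly from epithelia.

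The libraries held between 19650983 and 28860598 counts, of which the 10 genes together took 0.422% to 0.469% in WT. Their share was 0.429% in the first library labelled KO (KO-1 below) and 0.299% in the second (KO-2). The targeted receptors did not check the KO label, since counts over the whole gene include exons that Cre leaves and cells without Cre: Tgfbr1 differed by 0.20 (DESeq2 adjusted p = 0.63) and Tgfbr2 by -0.09 on the log2 scale (DESeq2 adjusted p = 0.838), with overlapping groups. KO-1 and KO-2 stood apart from each other. In KO-1, 6 cardiac muscle markers summed to a normalized count of 25308.4, against 2914.1 to 4036.7 in WT and 3999.7 in KO-2. The sum hides that 3 of these markers lay above every WT library in both KO libraries, against 17.9% of all genes tested. Tnnt2 was at 4444.9 in KO-1 and 1975.3 in KO-2, against 376.3 to 848.8 in WT. Ryr2 was lower in KO-2, at 1368.1 against 2290.9 to 2666.8 in WT. In KO-2, mitochondrial transcripts took 11.711% of counts against 2.617% to 4.441% in WT, and 4 brown adipocyte markers summed to 9814.9 against 409.3 to 548.1. The changes of the 10 genes that passed, or that passed without either library, are therefore also given without KO-1 and without KO-2. The 7 SMC markers, among them Myh11 and Acta2, summed to 835574.8 or more in every library, and the defining markers of the labelled tissue were therefore abundant.

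Promoters are shown for 2 of the genes that were higher in KO (Lamb1 and Nid1) and for the 2 that were lower (Lama5 and Hspg2), since the genes of each pair were called in the same direction. RefSeq promoter entries (GRCm38.p6) were matched by symbol for 6 of the 10 genes and not for Lama3, Lama4, Lamc1 or Nid2. The letters run 5′ to 3′ on the gene's own strand over at most 250 bases before the RefSeq start site, ending where the GENCODE M21 gene begins. They cover chr12:31265043-31265233 (plus strand) for Lamb1, chr13:13437352-13437550 (plus strand) for Nid1, chr2:180225860-180226109 (minus strand) for Lama5 and chr4:137468553-137468768 (plus strand) for Hspg2. Capitals mark CAGAC, the core of a SMAD binding element, and GGGCGG, a GC box bound by Sp1, each on either strand (GTCTG and CCGCCC when read on the other).
Lamb1: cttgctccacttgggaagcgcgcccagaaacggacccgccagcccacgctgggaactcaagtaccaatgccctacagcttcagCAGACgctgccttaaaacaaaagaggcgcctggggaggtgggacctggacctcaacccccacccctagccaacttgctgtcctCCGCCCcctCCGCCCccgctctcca
Nid1: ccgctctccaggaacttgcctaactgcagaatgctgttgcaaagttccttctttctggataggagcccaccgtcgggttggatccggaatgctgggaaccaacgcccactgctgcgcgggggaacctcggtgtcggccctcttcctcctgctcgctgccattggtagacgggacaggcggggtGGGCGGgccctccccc
Lama5: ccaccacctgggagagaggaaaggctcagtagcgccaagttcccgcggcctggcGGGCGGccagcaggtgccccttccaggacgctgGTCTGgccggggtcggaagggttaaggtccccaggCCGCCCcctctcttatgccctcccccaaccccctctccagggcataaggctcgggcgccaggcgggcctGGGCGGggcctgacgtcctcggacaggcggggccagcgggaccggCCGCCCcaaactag
Hspg2: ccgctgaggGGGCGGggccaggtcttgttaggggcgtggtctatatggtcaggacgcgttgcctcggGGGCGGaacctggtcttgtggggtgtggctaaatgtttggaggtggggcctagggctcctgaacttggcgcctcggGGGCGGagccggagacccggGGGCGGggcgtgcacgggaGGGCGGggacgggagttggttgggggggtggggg

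CAGAC matched once each in Lamb1 and Lama5 and not in Nid1 or Hspg2, so it did not separate the higher from the lower pair. At least 1 match stood in 42.2% of all 32851 promoters of 250 bases. GGGCGG matched 2 times in Lamb1, 1 time in Nid1, 4 times in Lama5 and 5 times in Hspg2, and stood in 32.7% of all promoters. TGANTCA, the AP-1 motif, matched none of the 4 and stood in 6.75% of all promoters. No marked motif overlapped another. Over their 250 bases the promoters held 62.0% (Lamb1), 64.4% (Nid1), 72.4% (Lama5) and 70.0% (Hspg2) G and C, against a median of 52.4% over all promoters.

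Levels were compared between genes as normalized counts (counts divided by the DESeq2 size factor of the library) per kb of exon. In WT aorta, Lamb2 was the most abundant at 4780.1 ± 107.7 per kb (SD, n = 4), followed by Hspg2 at 3209.1 ± 152.0 and Lamc1 at 1164.3 ± 123.3. Lama5 (788.2 ± 83.8), Lama4 (580.2 ± 79.5) and Nid1 (410.3 ± 82.2) formed a middle range, and Lama2 (161.1 ± 23.0), Nid2 (79.3 ± 8.97), Lamb1 (32.5 ± 4.56) and Lama3 (6.66 ± 2.52) lay lower. The WT ranges of neighbors in this order did not overlap except for Lama4 and Nid1, whose highest and lowest libraries met at 519.0 per kb for Nid1 and 500.1 for Lama4.

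In KO, Lamb2 (3488.2 ± 814.5, SD, n = 2), Hspg2 (2083.8 ± 417.4) and Lamc1 (1119.9 ± 14.1) kept the first 3 places. Nid1 came next at 851.7 ± 52.0, above Lama4 at 528.0 ± 141.8 and Lama5 at 502.7 ± 127.8. Lama5 exceeded Lama4 in all 4 WT libraries, and Lama4 exceeded Lama5 in both KO libraries. The last 4 places went to the same genes in the same order as in WT, with Lama2 at 209.4 ± 67.4, Nid2 at 86.2 ± 1.03, Lamb1 at 78.4 ± 8.36 and Lama3 at 21.2 ± 0.147 per kb.

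**Figure D1:**
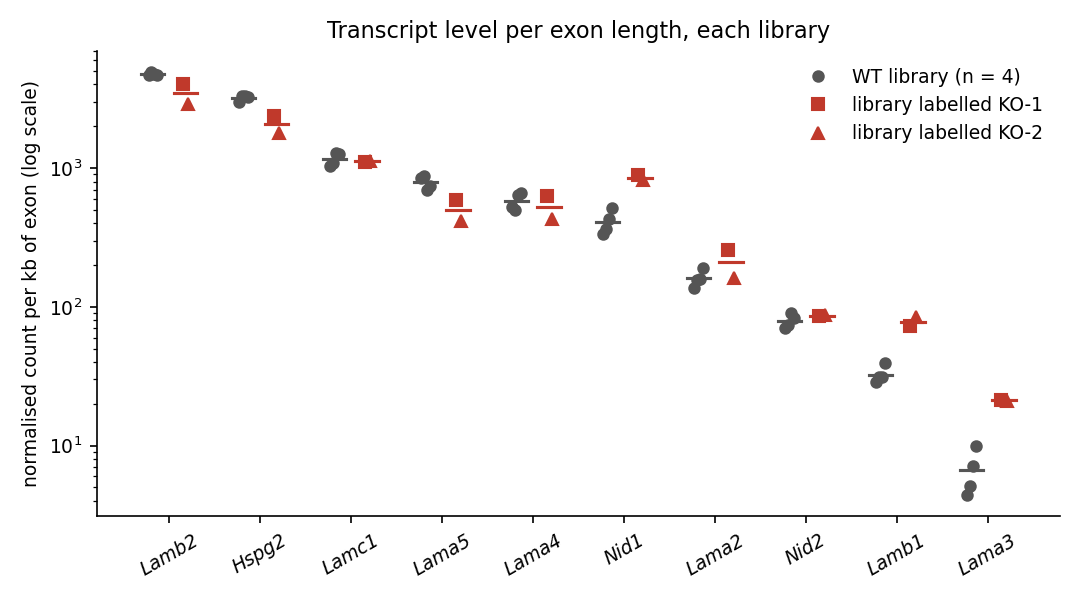
Normalized count per kb of exon (log scale) of the 10 genes, ordered by their WT mean. Circles are WT libraries, the square is KO-1, the triangle is KO-2, and bars are group means; Lama3, Lamb1 and Nid1 sit higher in both KO libraries, while Lamb2, Hspg2 and Lama5 sit lower.

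The comparison of KO with WT asked which of these transcripts differed 1 week after TGF-β receptor deletion in SMCs. Of the 10 genes, 5 passed a DESeq2 adjusted p-value of 0.05 over all genes tested, against 10.4% of the 17070 genes tested (12.2% of those with a mean normalized count of at least 100). Lama3, Lamb1 and Nid1 were higher in KO, against 5.71% of all genes in that direction, and each exceeded 2-fold, which 5.64% of all genes did (3.54% higher and 2.1% lower). Lama5 and Hspg2 were lower by less than 2-fold, against 4.69% of all genes that passed as lower. The median log2 fold change of the 10 genes was 0.03 beside 0.01 over all genes tested. In 6 genes the groups did not overlap, against 34.3% of all genes tested: 3 lay above WT (17.9% of all genes) and 3 below it (16.4%). In whole tissue, fewer cells of a type and less RNA per cell cannot be told apart.

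**Figure D2:**
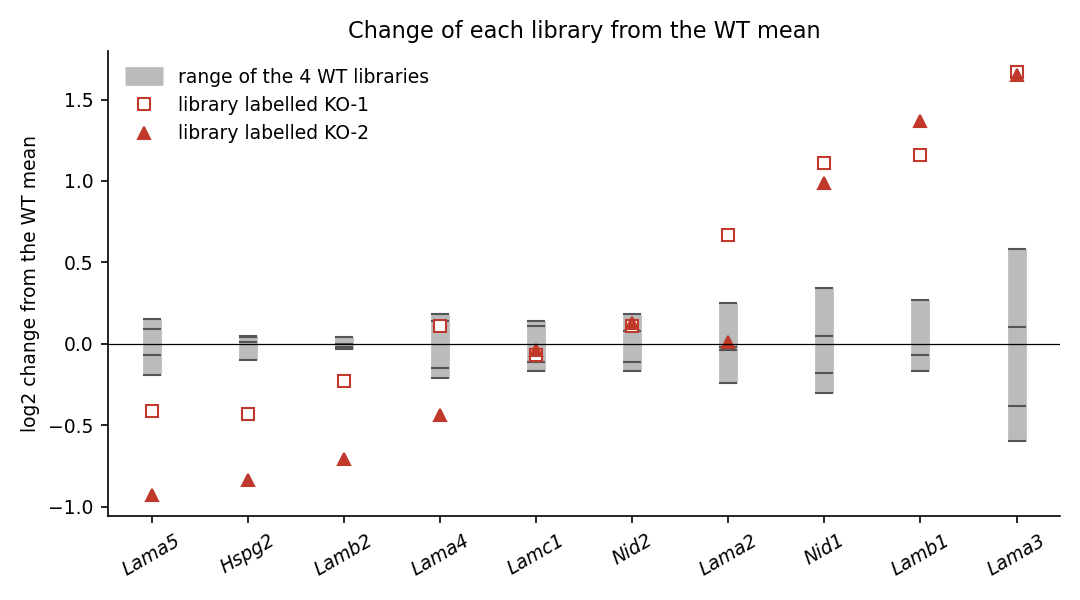
Log2 change of each library from the WT mean for the 10 genes. The gray box spans the 4 WT libraries, with a line at each, the open square is KO-1 and the filled triangle KO-2; they lie at 1.67 and 1.65 for Lama3 but far apart for Lama2, at 0.67 and 0.01.

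Among the α chains, which carry the cell-binding end of laminin, Lama3 was higher in KO and Lama5 was lower. Lama3 (chr18:12333819-12583013, GRCm38) had normalized counts of 47.23, 54.78, 76.89 and 107.5 in the WT libraries (in the order of their numbers, as below) and of 228.4 and 226.2 in KO-1 and KO-2. The KO libraries lay above every WT library and close together, while the WT libraries spread more widely. Lama3 was 3.18-fold higher, a log2 fold change of 1.67 (SE 0.38, DESeq2 adjusted p = 0.000352). The change was 1.66 without KO-1 and 1.68 without KO-2, and passed in all 14 alternative fits.

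Lama5 (chr2:180176373-180225859), the α chain of mature vessel basement membranes, had normalized counts of 9584.7, 9933.2, 7864.1 and 8521.3 in WT and of 6753.9 and 4695.4 in KO-1 and KO-2. Both KO libraries lay below the WT range, KO-2 by much more. Lama5 was 1.57-fold lower, with a log2 fold change of -0.65 (SE 0.20, DESeq2 adjusted p = 0.0161). Without KO-2 the change was -0.40 and did not pass (DESeq2 adjusted p = 0.24), and without KO-1 it was -0.93 (DESeq2 adjusted p = 4.08e-05). The gene passed in 6 of the 14 alternative fits, and the call was also lost at a similar size without WT-1 (-0.62, DESeq2 adjusted p = 0.0649) or WT-2 (-0.60, DESeq2 adjusted p = 0.0831) and with all libraries in edgeR (-0.67, adjusted p = 0.0722).

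Lama2 and Lama4, the α chains of muscle and of vessel walls, did not pass. Lama2 (chr10:26980036-27619758) had normalized counts of 2226.5, 2569.3, 2596.4 and 3137.7 in WT and of 4199.9 and 2642.7 in KO-1 and KO-2. Only KO-1 exceeded the WT range. That library had the highest sums of cardiac muscle, skeletal muscle, fibroblast, endothelial and Schwann cell markers, and their part in this was not tested. The log2 fold change of Lama2 was 0.38 with a 95% interval of -0.07 to 0.82 (DESeq2 adjusted p = 0.332). Without KO-2 the value was 0.68 and passed (DESeq2 adjusted p = 0.0403), and without KO-1 it was 0.01.

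Lama4 (chr10:38965515-39110188) had normalized counts of 6328.0, 6034.8, 7708.3 and 7935.6 in WT and of 7581.7 and 5161.3 in KO-1 and KO-2. KO-1 lay within the WT range and KO-2 below it. For Lama4 the log2 fold change was -0.14 with a 95% interval of -0.55 to 0.28 (DESeq2 adjusted p = 0.78), and it turned to 0.13 without KO-2.

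Of the β chains, Lamb1 was higher in KO, while Lamb2 lay below WT without passing the test. Lamb1 (chr12:31265234-31329644), a β chain widely used in developing tissue, had normalized counts of 285.6, 308.0, 307.6 and 388.4 in WT and of 718.6 and 835.8 in KO-1 and KO-2. Each KO library exceeded the highest WT library. Lamb1 was 2.41-fold higher (log2 fold change 1.27, SE 0.22, DESeq2 adjusted p = 5.89e-07). It passed in all 14 alternative fits, with a log2 fold change of 1.38 without KO-1 and 1.17 without KO-2.

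Lamb2 (chr9:108479736-108490530), the β chain of mature arteries, had normalized counts of 28680.7, 29976.4, 29121.5 and 28512.7 in WT and of 24718.1 and 17712.2 in KO-1 and KO-2. The WT libraries varied little among themselves, with a coefficient of variation of 2.25%, and both KO libraries lay below them. Lamb2 differed by -0.45 on the log2 scale with a 95% interval of -0.80 to -0.11 and did not pass after adjustment (DESeq2 adjusted p = 0.0799). It passed without KO-1, at -0.71 (DESeq2 adjusted p = 3.89e-06), and was -0.22 without KO-2.

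Lamc1 (chr1:153218922-153332786), the γ chain of most laminins and the one that nidogen binds, had normalized counts of 8588.5, 8929.2, 10591.3 and 10416.5 in WT and of 9181.3 and 9346.6 in KO-1 and KO-2. Both KO libraries lay inside the WT range. Lamc1 differed by -0.06 on the log2 scale with a 95% interval of -0.38 to 0.27 (DESeq2 adjusted p = 0.895). No alternative fit called Lamc1.

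Of the nidogens, Nid1 was higher in KO and Nid2 was not called. Nid1 (chr13:13437551-13512269) had normalized counts of 2317.7, 2513.6, 2958.9 and 3603.4 in WT and of 6168.9 and 5657.8 in KO-1 and KO-2. The groups did not overlap. Nid1 was 2.08-fold higher (log2 fold change 1.05, SE 0.21, DESeq2 adjusted p = 2.51e-05). It passed the adjusted p-value in all 14 alternative fits, but its log2 fold change was 0.97 without WT-1 and 0.99 without KO-1, just under 2-fold, as it was by less than rounding without WT-2. Without KO-2 it was 1.13.

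Nid2 (chr14:19751265-19811787), the second nidogen, had normalized counts of 363.6, 380.8, 464.4 and 432.3 in WT and of 442.4 and 449.9 in KO-1 and KO-2, inside the WT range. Nid2 differed by 0.12 on the log2 scale with a 95% interval of -0.29 to 0.53 (DESeq2 adjusted p = 0.81). Of its exon bases, 8.446% are shared with Rtraf on the opposite strand, and reads of the pair cannot be told apart unless counting used strand, which is not stated. Antisense genes share 3.862% of the exon bases of Lama2, 2.06% of Nid1 and 1.833% of Lama3.

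Hspg2 (chr4:137468769-137570630), which encodes the perlecan core protein, had normalized counts of 42718.4, 47449.5, 47094.5 and 46386.5 in WT and of 34035.9 and 25591.2 in KO-1 and KO-2. Both KO libraries lay below all WT libraries. Hspg2 was 1.54-fold lower (log2 fold change -0.62, SE 0.17, DESeq2 adjusted p = 0.00532). The change was -0.84 without KO-1 (DESeq2 adjusted p = 5.41e-07) and -0.42 without KO-2 (DESeq2 adjusted p = 0.064), and it passed in 10 of the 14 alternative fits.

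The makeup of each chain family within a library does not depend on the scaling between libraries, and was taken from counts per kb. Shares and ratios were not adjusted for the trend with GC content given below, and its part in them was not tested. Lama5 transcripts held 59.88% G and C, against 47.71% in Lama2, 50.03% in Lama4 and 51.74% in Lama3. Lamb2 held 58.8% and Lamb1 52.52%. Among α chains, Lama5 took 55.9%, 56.8%, 46.2% and 46.5% in WT and 39.5% and 40.3% in KO-1 and KO-2. All WT libraries thus lay above both KO libraries. Lama2 took 10.5% ± 1.19 in WT (SD, n = 4) and 16.5% ± 0.938 in KO (SD, n = 2), and Lama3 took 0.431% ± 0.151 and 1.74% ± 0.453, again without overlap. Lama4 took 37.7% ± 4.83 in WT and 41.9% ± 0.0555 in KO, and its groups overlapped. By a two-sided exact permutation test over the 15 arrangements of libraries, p was 0.133 for Lama5, Lama2 and Lama3, the smallest this design allows, and 0.4 for Lama4. Lama1 had no counts in any library, and a count of 0 allows up to 3 counts in each.

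The β chains were almost entirely Lamb2 in every library, at 97.1% or more. Lamb2 exceeded Lamb1 by 164, 159, 154 and 120 times in WT and by 56.1 and 34.6 times in KO-1 and KO-2, a log2 difference of -1.75 (exact permutation p = 0.133). Lamb1 thereby took 0.676% ± 0.103 of β chain transcripts in WT (SD, n = 4) and 2.28% ± 0.749 in KO (SD, n = 2). Of the sum of the γ chains Lamc1 and Lamc3, Lamc1 took 65.7% ± 3.47 in WT, against 71.4% in KO-1 and 87.4% in KO-2. Lamc3 took the remaining 34.3% ± 3.47 in WT, 28.6% in KO-1 and 12.6% in KO-2. Nid1 exceeded Nid2 by 4.75, 4.92, 4.75 and 6.21 times in WT and by 10.4 and 9.37 times in KO-1 and KO-2, a log2 difference of 0.95 (exact permutation p = 0.133).

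Summed over each family, β chain transcripts stood at 4813.3 ± 106.4 per kb in WT (SD, n = 4), above the γ chains Lamc1 and Lamc3 at 1769.9 ± 115.0 and α chains at 1536.2 ± 50.6, although a trimer holds an equal number of each. In KO the sums were 3570.5 ± 807.0 for β (SD, n = 2), 1424.0 ± 185.3 for these γ chains and 1261.2 ± 337.2 for α. The α sum was 1499.6 in KO-1, within the WT range, and 1022.8 in KO-2. The nidogen sum was 489.5 ± 88.83 in WT and 937.9 ± 51.02 in KO, and all 4 WT libraries lay below both KO libraries.

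**Figure D3:**
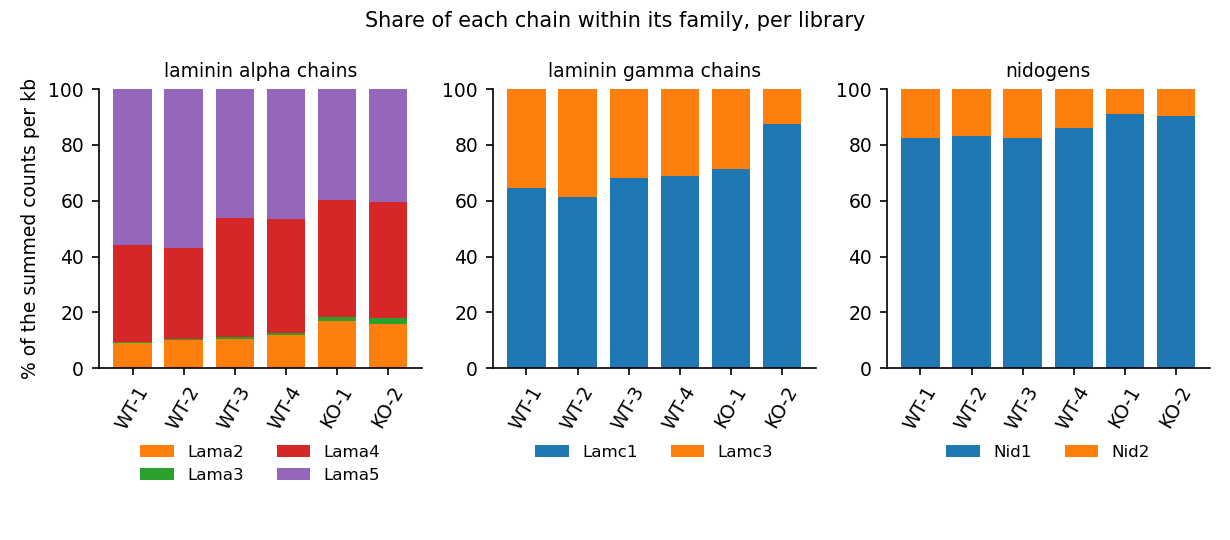
Stacked bars give the percentage that each chain takes of the summed normalized counts per kb of its family in each library, for laminin α chains, the laminin γ chains Lamc1 and Lamc3, and nidogens. Lama5 takes less and Lama2 more of the α chains in both KO libraries, the Lamc3 share is smallest in KO-2, and Nid1 takes more of the nidogens. The shares are not adjusted for GC content.

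The GC content of the transcripts went along with the change over all genes. Among tested genes with a mean normalized count of at least 100, the median log2 fold change was 0.162 in 2996 genes under 45% GC, -0.257 in 802 genes of 57.5% to 60% and -0.322 in 332 genes of 60% to 62.5%. In the latter classes, 13.2% and 15.7% of genes passed as lower. The 3 genes whose KO libraries both lay below WT were those with the most G and C: Hspg2 at 60.87%, Lama5 at 59.88% and Lamb2 at 58.8%. The other 7 held 47.71% to 54.55%.

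With the GC trend of each library taken out, Hspg2 changed by -0.34 (DESeq2 adjusted p = 0.296), Lama5 by -0.38 (DESeq2 adjusted p = 0.184) and Lamb2 by -0.22 (DESeq2 adjusted p = 0.552). None of these passed, while the directions stayed the same. Lama3 then changed by 1.70, Lamb1 by 1.33 and Nid1 by 1.06, and each passed (DESeq2 adjusted p of 0.000292, 1.13e-07 and 1.48e-05). The 3 higher calls were therefore as large without the GC trend, and the 2 lower calls were lost without it.

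**Figure D4:**
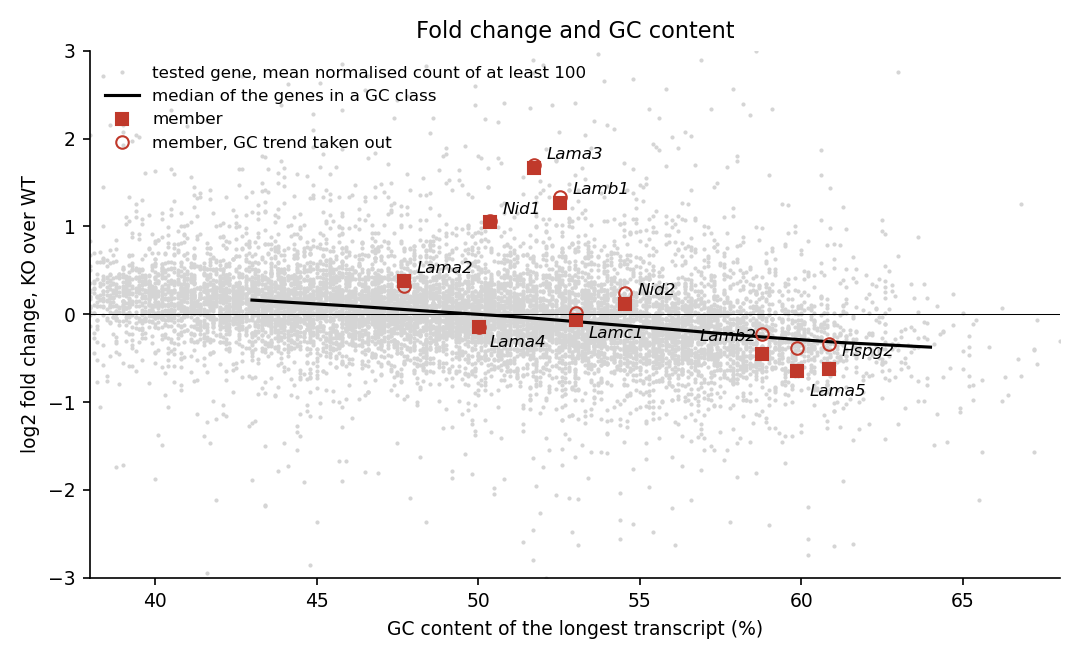
Log2 fold change of KO over WT against the GC content of the longest transcript. Gray points are tested genes with a mean normalized count of at least 100 (genes beyond the axes are not drawn), the black line is the median in classes of GC content, filled squares are the 10 genes and open circles the same genes with the GC trend taken out; Lamb2, Lama5 and Hspg2 sit at the GC-rich end and move toward 0.

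Markers of other cells of the wall also differed between groups. Over all genes tested, 17.9% lay above every WT library in both KO libraries and 5.71% passed as higher. Of 8 endothelial markers, 6 were higher in both KO libraries than in all WT libraries and 4 passed as higher, while Egfl7 lay below WT in both, at 854.4 and 810.0 against 1023.3 to 1466.5, without passing. Their summed normalized count was 12729.5 to 22886.8 in WT and 31378.1 to 32431.1 in KO. All 7 macrophage markers lay above WT (5 passed), with sums of 7285.9 to 8683.0 in WT and 12930.4 to 13942.4 in KO. All 6 mesothelial markers passed as higher, from 228.1 to 451.4 in WT to 899.2 in KO-1 and 2459.6 in KO-2, and Wt1 was at 0 in WT-2. Of 7 fibroblast markers, 4 lay above WT and 2 passed, with sums of 46077.3 to 51660.5 in WT and 59580.0 to 64593.6 in KO. With edgeR fewer passed in each list: 3 endothelial, 3 macrophage, 3 mesothelial and 1 fibroblast marker.

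No SMC marker of 7 passed, and none of 6 Schwann cell markers did. In these lists 4 and 2 had an unadjusted p under 0.05, against 3788 of all 17070 genes tested, and edgeR called 0. Tagln, Cnn1 and Smtn still lay below every WT library in both KO libraries, by log2 fold changes of -0.41, -0.38 and -0.3. Myh11 lay above, at 0.36, as did 2 Schwann cell markers. Over all genes tested, 16.4% lay below and 17.9% above. Within WT, Lama2, Lama3, Lamb1 and Nid1 were each lowest in WT-1 and highest in WT-4, and so was the summed endothelial level. The share of all genes with this order was not determined, so the likeness cannot be weighed. Of the 8 endothelial markers, 7 were lowest in WT-1 and 4 highest in WT-4, and of the 6 Schwann cell markers, 5 were lowest in WT-1 and 2 highest in WT-4. In the fibroblast list and in the macrophage list, 2 of 7 were lowest in WT-1 and 3 highest in WT-4. For the 6 mesothelial markers these counts were 1 and 0, and for the 7 SMC markers 1 and 1. The part of endothelial, mesothelial, macrophage and fibroblast RNA in the higher levels of Lama3, Lamb1 and Nid1 was not tested.

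Of the remaining lists, red blood cell markers summed to 859.3 to 5989.6 in WT, 11075.9 in KO-1 and 61684.3 in KO-2, and 4 of 4 tested passed as higher. White adipocyte markers summed to 411.4 to 997.7 in WT, 849.1 in KO-1 and 6755.5 in KO-2, with 1 of 4 passed, as for brown adipocyte markers. In both adipocyte lists edgeR called 0. Cardiac muscle markers passed in 3 of 6, skeletal muscle markers in 0 of 4 tested and lymphocyte markers in 0 of 5. By comparison, 5.71% of all genes tested passed as higher. Lymphocyte markers were sparse, with sums of 14.62 to 60.41 in WT and 75.88 to 283.9 in KO. Lama5, Lamb2 and Hspg2 were lower in KO-2, the library with the most fat and red blood cell transcripts, than in KO-1, and the part of these in that difference was not tested.

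The other genes of the basement membrane numbered 30, of which 28 were tested and 15 passed, 5 higher and 10 lower (median log2 fold change -0.20). By comparison, 5.71% of all genes passed as higher and 4.69% as lower. Of the type IV collagens, which form the other network of the membrane, Col4a1, Col4a2, Col4a5 and Col4a6 were lower, by log2 fold changes of -0.56 to -0.87. Col4a3 was higher at 0.76 (DESeq2 adjusted p = 0.000864). With the GC trend taken out, Col4a1 no longer passed (log2 fold change -0.34, DESeq2 adjusted p = 0.158).

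The genes past 2-fold were Col15a1 and Col18a1, the collagens that carry glycosaminoglycan chains in vessel basement membranes, and Hmcn1 and Fras1, which encode large basement membrane proteins. Col15a1 had normalized counts of 20673.2 to 27564.6 in WT and of 539.5 and 768.2 in KO (log2 fold change -5.16, DESeq2 adjusted p = 4.42e-137). Col18a1 had 57338.2 to 70175.2 in WT and 26854.0 and 26800.7 in KO (log2 fold change -1.22, DESeq2 adjusted p = 1.41e-12). With the GC trend taken out the changes were -4.98 and -0.93, and both passed the adjusted p-value.

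Fras1 was low in all libraries, with normalized counts of 14.28 to 44.90 in WT and of 188.9 and 135.2 in KO (log2 fold change 2.28, DESeq2 adjusted p = 5.78e-05). Hmcn1 had 7.309 to 19.77 in WT and 56.91 and 79.90 in KO (log2 fold change 2.46, DESeq2 adjusted p = 0.00108). Both thus resembled Lama3 in being scarce in WT and higher in KO.

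Laminin chains outside the 10 genes included Lamb3 and Lamc3. Lamc3, a γ chain of restricted distribution, was lower: it had normalized counts of 3502.8, 4134.6, 3625.0 and 3490.6 in WT and of 2711.1 and 993.2 in KO-1 and KO-2 (log2 fold change -0.99, DESeq2 adjusted p = 0.0173). KO-2 lay far below KO-1, and the gene passed in 6 of the 14 alternative fits. With the GC trend taken out its change was -0.76 and did not pass (DESeq2 adjusted p = 0.106). Lamb3, a β chain that pairs with α3 in epithelia, did not pass. It had at most 10.78 normalized counts in WT and 30.35 and 22.12 in KO (log2 fold change 2.59, DESeq2 adjusted p = 0.121). Agrin (Agrn), another laminin-binding heparan sulfate proteoglycan, was also lower (log2 fold change -0.91, DESeq2 adjusted p = 0.00285). Against the WT mean, Agrn changed by -0.56 in KO-1 and -1.38 in KO-2, and it passed in 11 of the 14 alternative fits. Unlike Hspg2, Agrn still passed with the GC trend taken out (-0.73, DESeq2 adjusted p = 0.0184).

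Of 14 receptor genes and their partners in the dystrophin complex, 6 passed, 2 higher and 4 lower (median log2 fold change -0.24), against 10.4% of all genes tested (5.71% higher and 4.69% lower). Itga6 and Itga7 encode α subunits that pair with β1 as laminin receptors, and they changed in opposite directions. Itga7, the laminin integrin of muscle, had normalized counts of 7650.4, 7673.7, 6312.2 and 7095.0 in WT and of 4479.1 and 2373.5 in KO-1 and KO-2. Itga7 was 2.10-fold lower (log2 fold change -1.07, DESeq2 adjusted p = 0.000349), and its change was -0.85 with the GC trend taken out. Itga6 had 17.57, 38.62, 56.92 and 56.38 in WT and 154.8 and 244.6 in KO-1 and KO-2 (log2 fold change 2.23, DESeq2 adjusted p = 7.34e-05). Itga6 stayed far below Itga7 in all libraries, at 22.1 against 423.4 per kb in KO. Among WT libraries, Itga6 was also lowest in WT-1.

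Itgb4, which pairs with α6 in epithelia, was higher (log2 fold change 0.73, DESeq2 adjusted p = 0.0144), and Itgb1, the common β subunit, was not called at -0.12 with a 95% interval of -0.45 to 0.21. Bcam, the Lutheran receptor that binds laminin α5, was lower like Lama5: it had normalized counts of 24065.6 to 30233.8 in WT and of 16058.9 and 16018.5 in KO (log2 fold change -0.79, DESeq2 adjusted p = 3.49e-05). Unlike Lama5, Bcam passed in all 14 alternative fits, with a change of -0.50 once the GC trend was taken out. Sspn and Utrn, of the dystrophin complex, were lower by log2 fold changes of -0.53 and -0.52 (DESeq2 adjusted p of 0.0121 and 0.0278). Sspn passed in 10 and Utrn in 6 of the 14 alternative fits. Dag1, which encodes dystroglycan, differed by -0.64 with overlapping groups (DESeq2 adjusted p = 0.0868). Without KO-2, 2 of the 14 genes passed, while calls over all genes went from 1775 to 1113. The single KO libraries were close for some of the genes that lost their call: against the WT mean, Itgb4 changed by 0.78 in KO-1 and 0.69 in KO-2, and Utrn by -0.56 and -0.49.

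**Figure D5:**
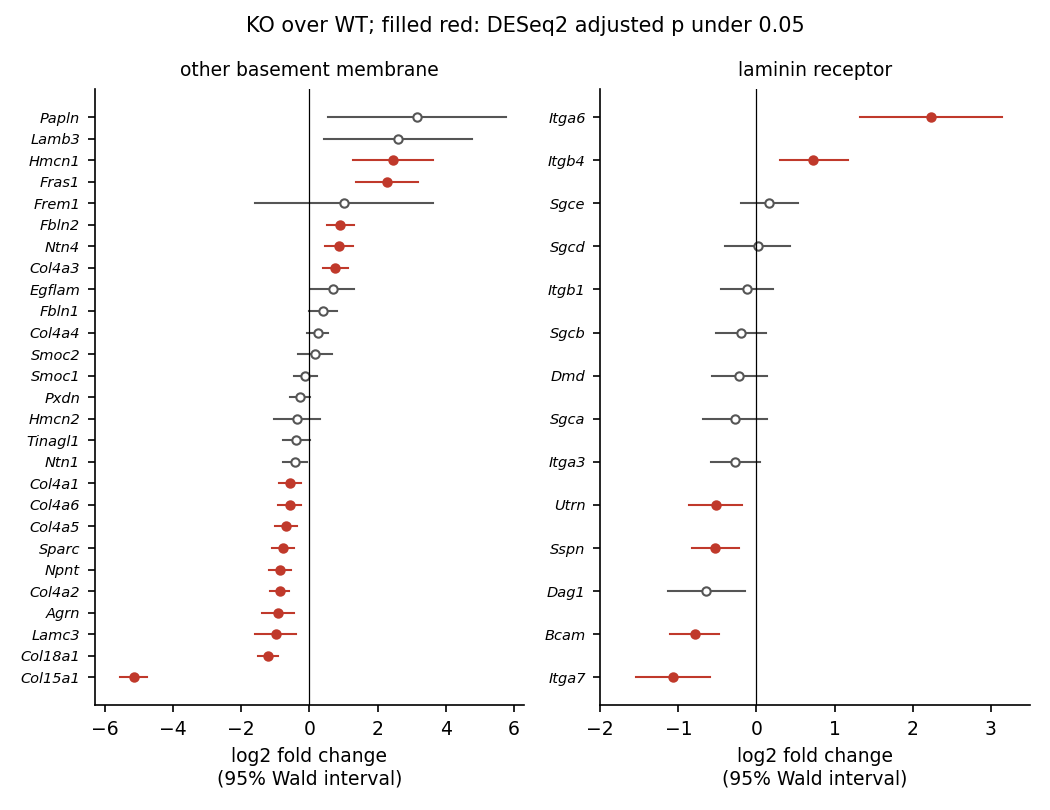
Log2 fold change of KO over WT with its 95% Wald interval for 27 other basement membrane genes and 14 laminin receptor genes. Filled red points passed the DESeq2 adjusted p-value and open points did not; the axes differ between panels, and Col15a1 lies at -5.16 and Itga6 at 2.23.

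For each of the 10 genes, the gene with the most similar profile over the 6 libraries was taken from 11437 others by Pearson correlation of log2 normalized counts, as a description. Lama3 and Nid1 had the same nearest gene, Antxr1 (r = 0.9989 and 0.9981), which encodes a receptor of matrix proteins. The nearest genes of the others were Cd33 for Lamb1 (r = 0.9985), Dkk3 for Hspg2 (r = 0.9995), Fchsd1 for Lama5 (r = 0.9993), Jam3 for Lamb2 (r = 0.9983), Cd302 for Lama2 (r = 0.9994) and Tmem47 for Nid2 (r = 0.9984). Lama4 was nearest to Zfp110 (r = 0.991) and Lamc1 to Tgfbr2 (r = 0.9942). With 6 libraries in 2 groups, these values only describe the profiles. A correlation above 0.95 was reached by 478 genes for Lama5 and 16 for Lamc1, and counts at higher limits were not determined.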

How the data were processed

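Bulk RNA-seq of thoracic aorta was analyzed in 4 WT and 2 KO libraries. The authors trimmed reads with Trim Galore, mapped them to GRCm38 with HISAT2 and quantified GENCODE M15 gene models with StringTie. The deposited table holds an estimated count for each gene in each library, unscaled, and its values were whole already. How StringTie coverage became whole numbers, and whether counting used strand, is not given in the sources used here. Column codes were matched to libraries by inference: 0-1 to 0-4 as WT-1 to WT-4, R1-0-1 and R1-0-2 as KO-1 and KO-2.

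DESeq2 1.42.0 (R 4.3.3; Wald test, group as the term, with size factors, outlier handling and independent filtering as by default) was fitted on all genes, with Benjamini-Hochberg adjustment over 17070. Genes under an adjusted p of 0.05 passed, and a fold above 2 is given separately, as in the study. Exon lengths, positions and the GC content of the longest transcript came from GENCODE M21 on GRCm38, with 52489 of 52636 identifiers matched. Normalized counts were used with a pseudocount of 0.5 where log2 values of single libraries were taken. Intervals are 95% Wald intervals.

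Chain shares and ratios were compared by exact permutation tests. Alternatives were edgeR 4.0.16 (with a filter on low counts or with none), a mean count of at least 10, TMM factors, total counts as scaling, GC and exon length trends taken out, a replicate block, and leaving out each library. With 1 KO library left, it is assumed to vary like WT. The DESeq2 and edgeR steps were tested on simulated data. All 10 genes are named, with genes of the related lists past 2-fold, those that bind a member, and for each member the gene of most similar profile (mean normalized count of at least 100). Type IV collagens, Agrn, the other laminin chains, Itgb4, Sspn, Utrn and Egfl7 were named after their values were seen. The members and lists were chosen with earlier results of these data known. A further list, which had no calls, and some genes of the other lists are not reported here.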

Additional observations from a re-analysis of the deposited data

Results flagged for a closer look

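Nid1 exceeded Nid2 by 6.212 times in WT-4, while the ratios of WT-1, WT-2 and WT-3 lay between 4.749 and 4.919. The gap took 0.883 of the range of the 4 WT libraries, above Dixon's 95% limit for 4 values. WT-4 was also the WT library with the highest Nid1, Lama2, Lama3 and Lamb1. The log2 difference of this ratio between KO and WT was 0.95 with all libraries and 1.04 without WT-4. It was the only 1 of 34 results checked in this way, where chance alone would give about 1.7.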

How the results depend on the processing

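Lama3, Lamb1 and Nid1 kept their direction and passed in all 14 alternative fits. The log2 fold changes of the 10 genes kept direction and call in 121 of 140 alternative values. The ratios and shares kept direction in 42 of 42, but most of these could not have reversed. Except for the Lama4 share their groups did not overlap, so leaving out a library cannot turn the difference. Exon length cancels in the log2 difference of a ratio. Ratios and shares were not computed with the GC or exon length trend taken out. Of the 10 genes, 5 passed in the fit reported, 4 with edgeR, and 3 with edgeR without a filter, with the GC trend taken out or with the replicate block. Leaving out single libraries gave 4 to 6. For laminin receptor genes (6), 3 passed with edgeR without a filter and 3 with the replicate block, and 2 to 6 without single libraries. Over all genes, 962 passed with a fold above 2, against 633 with edgeR, 561 with the replicate block and 636 to 1284 without single libraries. By the adjusted p-value alone 1775 passed, against 996 with edgeR, 931 with edgeR without a filter, 628 with the replicate block and 1113 to 2439 without single libraries, the lowest being without KO-2. Directions reversed for Lama4 (0.02 with the replicate block, 0.13 without KO replicate 2, within -0.44 to 0.13 over single libraries) and for Lamc1 (0.02 with the GC trend taken out, 0.08 with the replicate block), none of them called; the cause was not tested. Replicate numbers were not used as pairs in the fit reported. Deviations of same-numbered libraries correlated at -0.073 and 0.006, and the highest value was 0.191, between WT-4 and KO-1. With 2 KO libraries, their deviations from the KO mean mirror each other, so the check could not decide whether samples were paired. Counting depth limits genes with few counts, such as Lama3, whose lowest library held 43.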
